A study of Danio rerio with 6 samples.

Results

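Dopamine signalling was followed through 6 genes in whole brains of male zebrafish at 12 months of age: th and ddc, which code for the enzymes of dopamine synthesis, the receptor genes drd2a, drd3 and drd4a, and nr4a2b, which codes for a nuclear receptor of dopamine neurons. They were chosen by name, from the gene symbols, old synonyms, homologue names and RefSeq accessions attached to the array targets. They were measured by 14 of the 38489 array targets, of which 10 were clear by name and 4 had a mixed annotation. The grade rests on names alone. For some clear targets the place given by the array file is not on the chromosome of the current gene table. The lead-exposed group held 3 fish of the AB strain kept as embryos in 100 ppb lead as lead acetate, from before 2 to 72 hours after fertilization. The control group held 3 AB fish kept at 0 ppb over the same time. All fish of both groups were then raised in water without lead at 28 °C under a cycle of 14 hours of light and 10 hours of dark, and each brain was hybridised to its own 1-colour array. The comparison asks whether expression in the aged brain differs long after an embryonic exposure.

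Dopamine is made from tyrosine by tyrosine hydroxylase, the rate-limiting enzyme, and then by DOPA decarboxylase, which also completes serotonin synthesis. Receptors of the D2 class, to which drd2a, drd3 and drd4a belong, couple to inhibitory G proteins. In mammals the nuclear receptor Nr4a2 (Nurr1) is needed for midbrain dopamine neurons to form and to keep their transmitter identity. In the zebrafish brain, dopamine neurons lie in the olfactory bulb, the subpallium and the diencephalon, and a midbrain group like that of mammals is lacking.

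On the first principal component, which carried 40.6% of the variance over targets, the groups were mixed. Lead-exposed 1 and 3 at 39.1 and 49.4 and control 3 at 24.2 lay on one side. Lead-exposed 2 at -37.6 and controls 1 and 2 at -38.1 and -37.0 lay on the other. The image names in the array files number the lead-exposed arrays as the last 3 and the control arrays as the first 3 images of 1 scan, so image position and exposure cannot be told apart. Random-sequence probes, which target no gene, set a background limit at their 95th percentile, between 10.41 and 10.91 on the log2 scale of the 6 arrays. Each of the 5 measured neuron markers was above that limit on all arrays. Of the 9 measured pituitary markers 8 were above it on no array. Summed intensities of the 4 measured retina markers were 1937 to 2669 in lead-exposed brains and 1701 to 39723 in controls, with the highest sum in control 2.

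Over all 38489 targets, 0 passed an adjusted p of 0.05 in limma (Benjamini-Hochberg), 0 passed in an equal-variance test, and the smallest adjusted p was 0.568. At unadjusted p under 0.05 there were 2768 targets, or 7.19%. Of the 14 dopamine targets 2 were at that level, the RefSeq targets of nr4a2b and drd3, both higher in lead-exposed brains, as 4.19% of all targets were. None of the 14 passed the adjusted threshold, as 0% of all targets did. The same counts of 2 and 0 came from the equal-variance test. Values of these 2 targets were higher in every lead-exposed brain than in any control, as they were for 7.01% of all targets. No dopamine target was lower in every lead-exposed brain than in any control, as 6.09% of all targets were. A mean difference above 0 was seen in 9 of the 14, against 49.2% of all targets. An unadjusted p under 0.05 together with a fold of at least 1.5 was reached by 0 of the 14, against 2.59% of all targets. None of the 14 targets was listed among the 180 altered targets of the authors' deposited table.

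**Figure D1:**
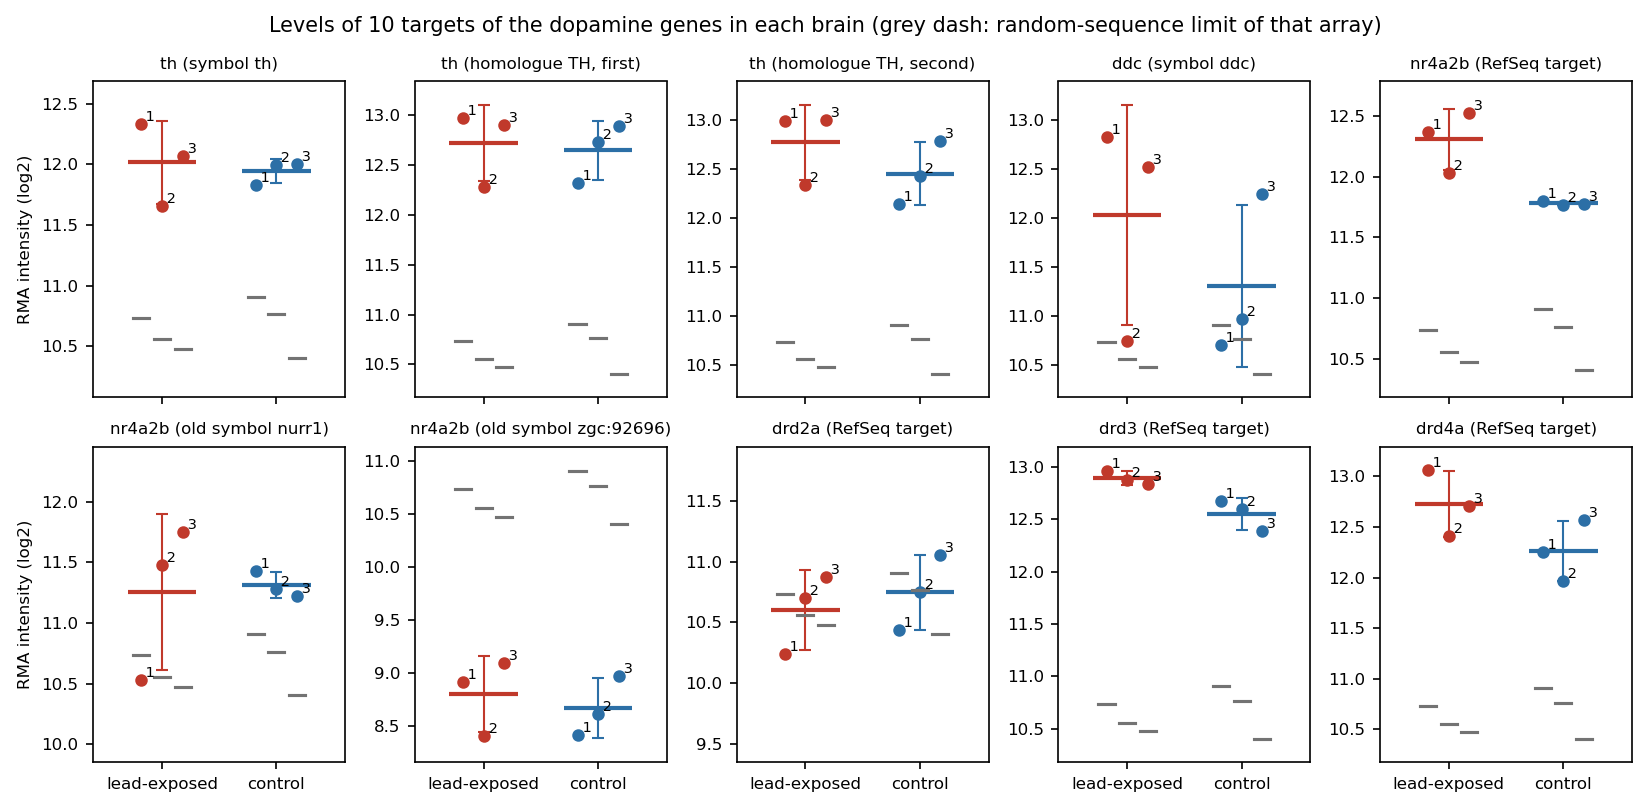
RMA intensity (log2) of the 10 targets clear by name, with lead-exposed brains (red) left of controls (blue). Points are single brains with their replicate number, bars are means with SD (n = 3 each), and grey dashes mark each array's random-sequence limit. The groups do not overlap for the nr4a2b RefSeq target and for drd3, while ddc spans a wide range in both groups.

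The gene nr4a2b gave the smallest p of the 6 genes, in its RefSeq target NM_001002406 on chromosome 6 at 11481798 to 11485562 of the Zv7 assembly. Its RMA values were 12.37, 12.03 and 12.53 in lead-exposed brains 1 to 3 and 11.80, 11.77 and 11.78 in controls 1 to 3 (log2). Every lead-exposed brain was above every control, and the controls lay close together. Means were 12.31 ± 0.25 and 11.78 ± 0.01 in lead-exposed and control brains (SD, n = 3 each). The difference of 0.53 (SE 0.16) is a 1.44-fold higher intensity, with a 95% confidence interval of 0.16 to 0.90. The unadjusted p was 0.0120 and the adjusted p in limma was 0.607, so the difference did not pass. In an exact permutation test over the 6 brains p was 0.1, the smallest that 3 against 3 allows.

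A second nr4a2b target, ENSDART00000024506, carries the old symbol nurr1 and lies on the unplaced contig Zv7_NA227 at 32938 to 68910. Its values were 10.53, 11.48 and 11.75 in lead-exposed brains and 11.43, 11.28 and 11.23 in controls (log2). Lead-exposed 1 had the lowest value and lead-exposed 3 the highest, so the groups overlapped. The value of lead-exposed 1 was below the random-sequence limit of its array, 10.73, and the other brains were above theirs. The difference was -0.06 (SE 0.31), with an interval of -0.79 to 0.67. It turned to 0.30 without lead-exposed 1 and was near 0 without control 1.

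Another target, OTTDART00000028154, carries the old symbol zgc:92696 and lies on chromosome 6 at 7376152 to 7380626 of Zv7. Its values were 8.92, 8.40 and 9.09 in lead-exposed brains and 8.42, 8.61 and 8.97 in controls, below the random-sequence limit on all arrays. The difference was 0.14 (SE 0.23). A further target of an expressed sequence tag, BI879680, is annotated only with the homologue NR4A2, a name that fits nr4a2a as well, and its forward and reverse-strand targets differed by -0.01 (SE 0.18) and 0.11 (SE 0.16). Both were below the random-sequence limit on all arrays.

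The RefSeq and nurr1 targets carry the name of 1 gene and had a similar order of the brains except for lead-exposed 1. Within each array, the RefSeq value minus the nurr1 value was 1.84, 0.55 and 0.77 in lead-exposed brains and 0.37, 0.49 and 0.55 in controls (log2). The mean gap was larger by 0.59 in lead-exposed brains, and the exact permutation p was 0.1, the smallest possible. Lead-exposed 2 and control 3 had almost the same gap. The largest came from lead-exposed 1, where the nurr1 target was below the random-sequence limit.

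Single probes of the nr4a2b RefSeq target differed in size of effect. Its second probe was the brightest, at 13.49, 13.15 and 13.64 in lead-exposed brains and 12.91, 12.74 and 12.90 in controls (log2 of the deposited probe intensity). That probe differed by 0.58 (SE 0.17), with an adjusted p of 0.325 in limma over all target probes. The third probe differed by 0.24 (SE 0.20), with 12.53, 12.08 and 12.28 in lead-exposed brains and 12.25, 12.14 and 11.77 in controls. The first probe was below the random-sequence limit on all arrays and differed by 0.28 (SE 0.34). The spread of the RMA value over the controls, an SD of 0.01, was smaller than that of each probe, at 0.13, 0.09 and 0.25. With the mean of the probes in place of the RMA value, the target differed by 0.36 at an unadjusted p of 0.101.

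The zgc:92696 target also had a bright probe among dim ones. Its second probe read 12.58, 12.04 and 12.21 in lead-exposed brains and 12.37, 12.33 and 11.91 in controls, a difference of 0.08 (SE 0.21). Both of its other probes were below the random-sequence limit on all arrays. The RMA value of this target, near 9, lay near those of its dim probes.

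**Figure D2:**
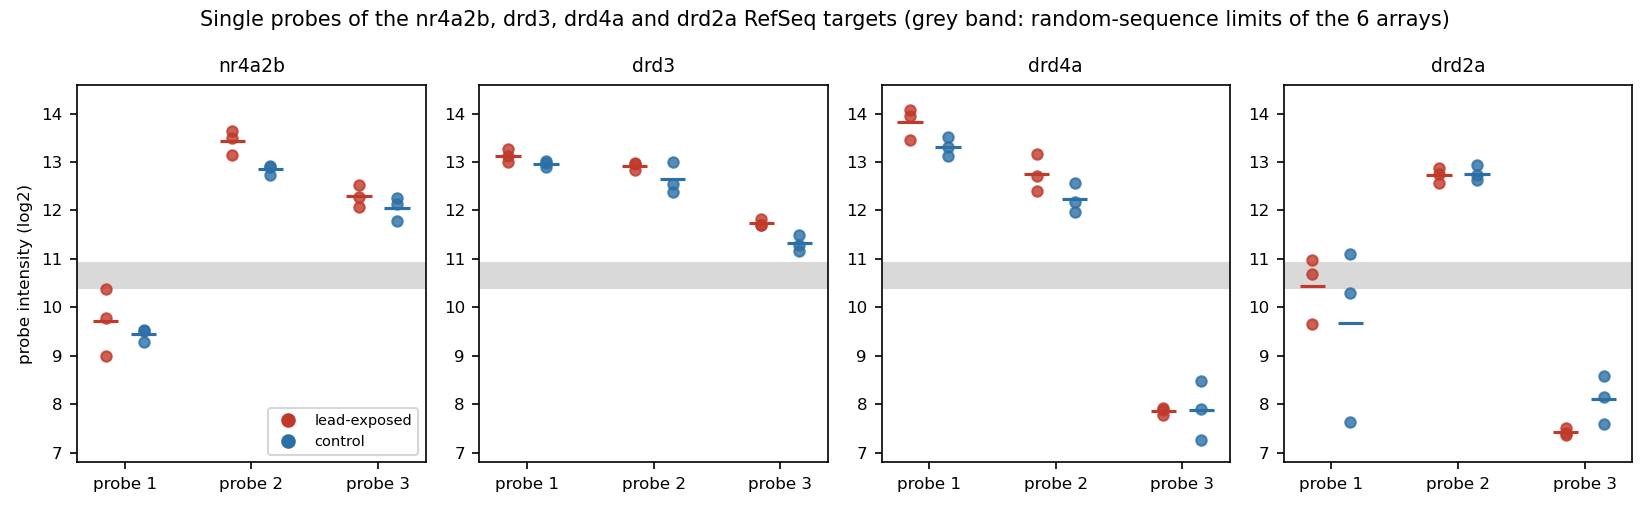
Intensity (log2) of each probe of the RefSeq targets of nr4a2b, drd3, drd4a and drd2a, with lead-exposed brains (red) left of controls (blue). Points are brains, lines are means and the grey band spans the random-sequence limits of the arrays. In nr4a2b the second probe differs most, at 0.58 log2, and in drd2a only the second probe is bright in all brains.

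Among the receptors, drd3 was higher in all lead-exposed brains. The target NM_183067 lies on chromosome 24 at 13643679 to 13664489 of Zv7. Its values were 12.96, 12.88 and 12.83 in lead-exposed brains and 12.68, 12.60 and 12.38 in controls (log2). Every lead-exposed value was above the highest control, with the lead-exposed brains closer together. The means were 12.89 ± 0.07 and 12.55 ± 0.15 in lead-exposed and control brains (SD, n = 3 each). The difference of 0.34 (SE 0.13) is 1.26-fold, with a 95% interval of 0.02 to 0.65, an unadjusted p of 0.0387 and an adjusted p of 0.680 in limma. The unadjusted p was above 0.05 with the mean of the probes (0.0548), with arrays centred on the median (0.0532) and without any 1 brain other than control 1 (0.0587 to 0.110). The 3 probes of drd3 were above the random-sequence limit on all arrays and differed by 0.17 (SE 0.14), 0.28 (SE 0.19) and 0.42 (SE 0.15). The groups overlapped in the first and second probes and did not overlap in the third. The order of the brains in drd3 was not that of the first principal component, since lead-exposed 2 stood with lead-exposed 1 and 3.

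The dopamine receptor gene drd4a had the target NM_001012616, which the array file places on chromosome 17 at 10049220 to 10076701 of Zv7 with adra2da as its map marker. The current gene table gives this accession to drd4a but on another chromosome, so its place on Zv7 is uncertain. Values were 13.06, 12.41 and 12.71 in lead-exposed brains and 12.25, 11.97 and 12.57 in controls (log2). Control 3 was above lead-exposed 2, so the groups overlapped. The highest brains were lead-exposed 1 and 3 and control 3, which lay together on one side of the first principal component. The difference was 0.46 (SE 0.22), or 1.38-fold, with an interval of -0.06 to 0.99, an unadjusted p of 0.0765 and an adjusted p of 0.723 in limma. It was 0.30 without lead-exposed 1. The first and second probes differed by 0.51 (SE 0.21) and 0.52 (SE 0.25), and the third, below the random-sequence limit on all arrays, by -0.03 (SE 0.30).

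The D2 receptor gene drd2a, with the target NM_183068 on chromosome 15 at 19680527 to 19691269 of Zv7, had a slightly lower mean in lead-exposed brains. Values were 10.24, 10.70 and 10.87 in lead-exposed brains and 10.44, 10.75 and 11.05 in controls (log2), above the random-sequence limit on 3 arrays. The groups overlapped over most of their range. The difference was -0.14 (SE 0.23), with an interval of -0.68 to 0.39, which also holds the difference of drd3. Its 3 probes read very different levels. The second, above the limit on all arrays, differed by -0.03 (SE 0.16). The first ranged over 7.63 to 11.09 in controls, with control 2 lowest. The third was below the limit on all arrays and differed by -0.68 (SE 0.26, unadjusted p of 0.0336, adjusted p of 0.407 in limma), with all lead-exposed values below all controls.

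Over all 41 probes of the 14 targets, 27 had a higher mean in lead-exposed brains, against 49.5% of all target probes. At unadjusted p under 0.05 there were 3 higher and 1 lower, where 5.99% and 5% of all target probes were higher and lower. The groups did not overlap for 2 higher and 2 lower probes, against 9.1% and 8.24% of all target probes. None of the 41 passed an adjusted p of 0.05 in limma, as 0.000881% of all target probes did. The smallest adjusted p among the 41 was 0.325 in limma, and 13 were above the random-sequence limit on no array. Probes of 1 target, and targets of 1 gene, are repeated readings of the same brains. The counts over probes and over targets are thus not of independent members.

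**Figure D3:**
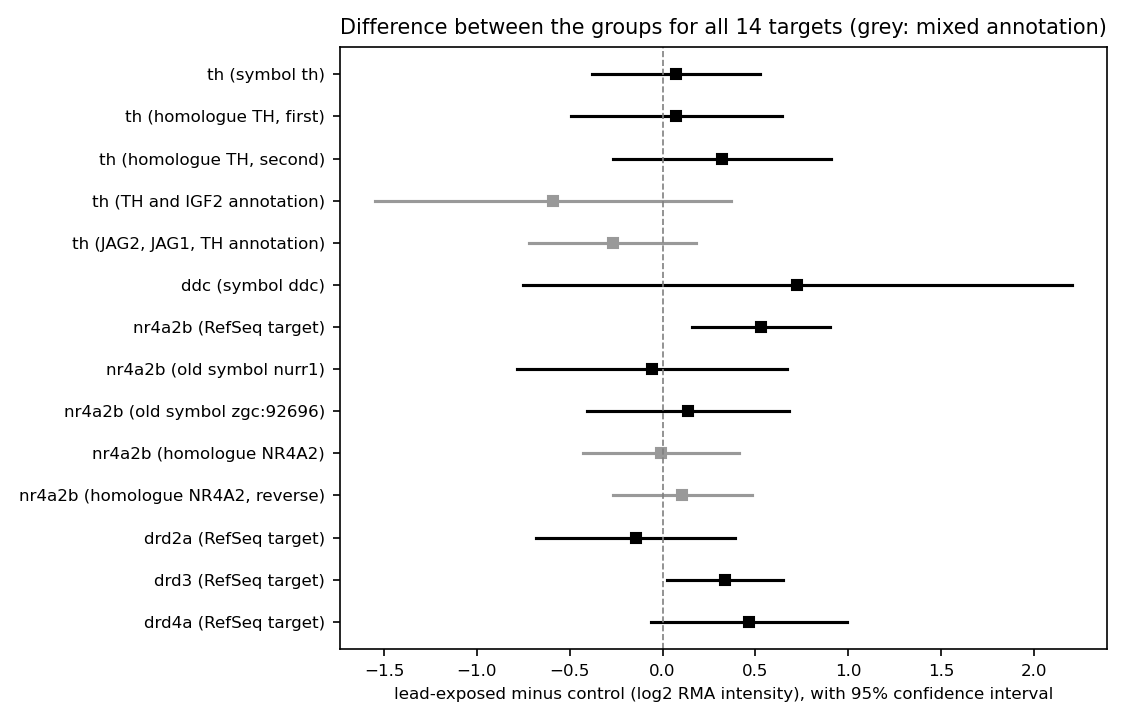
Lead-exposed minus control (log2 RMA intensity) for all 14 targets, with 95% confidence intervals from limma. Squares are differences, with targets of mixed annotation in grey. The intervals of the nr4a2b RefSeq target and of drd3 lie above 0, and that of ddc is the widest, from -0.75 to 2.21.

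Of the synthesis enzymes, th was read by 3 targets clear by name, with a similar order of the brains in each. The target with the symbol th, OTTDART00000002329, which the array file places at 11620390 to 11636805 of a sequence it names AB, read 12.33, 11.65 and 12.07 in lead-exposed brains and 11.83, 12.00 and 12.00 in controls (log2). Both targets with the homologue TH, ZV700S00003483 and ZV700S00003484, lie on chromosome 25 at 20357427 to 20361152 of Zv7 and share their source. The first read 12.98, 12.28 and 12.91 in lead-exposed brains and 12.32, 12.73 and 12.89 in controls. The second, on the linear scale, had intensities of 8113, 5157 and 8212 in lead-exposed brains and 4522, 5510 and 7079 in controls.

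Lead-exposed 1 and 3 had the highest th values in all 3 targets and control 3 came next, while lead-exposed 2 and control 1 were the lowest. The groups overlapped in each target. Differences were 0.07 (SE 0.19), 0.07 (SE 0.24) and 0.32 (SE 0.25), with intervals of -0.38 to 0.53, -0.50 to 0.64 and -0.26 to 0.91. Within each array, the second TH target minus the first was 0.01, 0.05 and 0.10 in lead-exposed brains and -0.17, -0.30 and -0.10 in controls (log2). The gap was larger by 0.25 in lead-exposed brains, with an exact permutation p of 0.1, the smallest possible. Against the target with the symbol th, the gap of the second TH target was also larger by 0.25, with an exact permutation p of 0.3. Adjusted p-values of the 3 differences in limma were 0.95, 0.963 and 0.818. None of these intervals excludes 0. The last of these differences, 0.32, was 0.17 without control 1 and 0.54 without lead-exposed 2.

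The remaining targets that carry the name TH have mixed annotation. ZV700S00006574, on chromosome 25 at 20330508 to 20338015, lists the homologue TH beside the map marker igf2 and the homologue IGF2. It read 11.80, 12.09 and 10.58 in lead-exposed brains and 12.46, 12.07 and 11.72 in controls, with the brains in another order than in the clear th targets. It differed by -0.59 (SE 0.40), and by -0.14 without lead-exposed 3. ZV700S00002103 lists JAG2, JAG1 and TH, was below the random-sequence limit on all arrays and differed by -0.27 (SE 0.19).

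The decarboxylase gene ddc varied most among the 6 genes. Its target OTTDART00000026263, on chromosome 16 at 2277219 to 2321426 of Zv7, read 12.82, 10.75 and 12.52 in lead-exposed brains and 10.70, 10.97 and 12.25 in controls (log2). On the linear scale these are intensities of 7255, 1717 and 5887 in lead-exposed brains and 1663, 2004 and 4856 in controls. The high brains were lead-exposed 1 and 3 and control 3, and the low brains were lead-exposed 2 and controls 1 and 2. This split crossed the groups and was the one seen on the first principal component. The difference was 0.73 (SE 0.62), with an interval of -0.75 to 2.21 and an adjusted p of 0.834 in limma. Without 1 brain at a time it was 0.33 to 1.37, lowest without lead-exposed 1 and highest without lead-exposed 2. On the 4 arrays whose image names carry a prefix it was 0.03, while lead-exposed 1 minus control 1, the arrays without it, was 2.12. The ddc value of control 1 was below the random-sequence limit of its array, 10.91. All 3 ddc probes had the same 3 high and the same 3 low brains, with differences of 0.70 (SE 0.95), 0.61 (SE 0.35) and 0.78 (SE 0.65).

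Of the genes of other monoamine neurons, some were high in the same brains as ddc and some were not. The gene tph2, for the tryptophan hydroxylase of serotonin neurons, read 13.57, 12.16 and 13.42 in lead-exposed brains and 12.42, 11.98 and 12.77 in controls (log2). The serotonin transporter gene slc6a4a read 12.54, 10.90 and 12.83 in lead-exposed brains and 11.49, 10.92 and 12.32 in controls. Both were highest in the 3 brains in which ddc was high. The noradrenergic factor gene phox2bb had another order, with 10.53, 11.52 and 11.20 in lead-exposed brains and 11.13, 11.43 and 10.90 in controls. In control 3, where ddc was high, tph1a and slc6a4b had their lowest control values, 11.23 and 10.01. The slc6a4b target was above the random-sequence limit on only 1 array, and below it in control 3.

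Most telencephalon markers had the opposite order. The pallial homeobox gene emx3 read 9.37, 12.68 and 10.28 in lead-exposed brains and 12.04, 12.27 and 11.06 in controls (log2). In emx1, emx3, dlx1a, dlx2a and lhx8a the 3 brains with high ddc had the lowest values, with lhx8a below the random-sequence limit on all arrays. In lead-exposed 1 and 3, emx1 and emx3 were also below that limit. The exception was emx2, which was highest in control 3, at 12.61. Low values in the 3 brains with high ddc were not particular to telencephalon markers. These brains were also the lowest for the glial markers fabp7a and sox2, the microglia marker coro1a and the receptor gene drd4-rs. The glial markers gfap, glula, s100b, cyp19a1b and aqp4 had other orders, and control 3 was the highest brain for glula, s100b and cyp19a1b. Of the other microglia markers, mpeg1.1, above the random-sequence limit on only 1 array, was also lowest in these brains. The microglia marker spi1b was highest in lead-exposed 1, and csf1ra and p2ry12 had other orders. For aqp4, csf1ra and p2ry12 all values were below the random-sequence limit. The share of all targets that were lowest in these brains was not counted. Summed intensities of the 6 measured telencephalon markers were 24852, 39772 and 24985 in lead-exposed brains and 37504, 40009 and 31243 in controls. The brains with the highest ddc values thus had the lowest sums. In whole brains, fewer cells of a type and less RNA per cell cannot be told apart, and the part of the telencephalon markers in the ddc and th values was not tested.

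**Figure D4:**
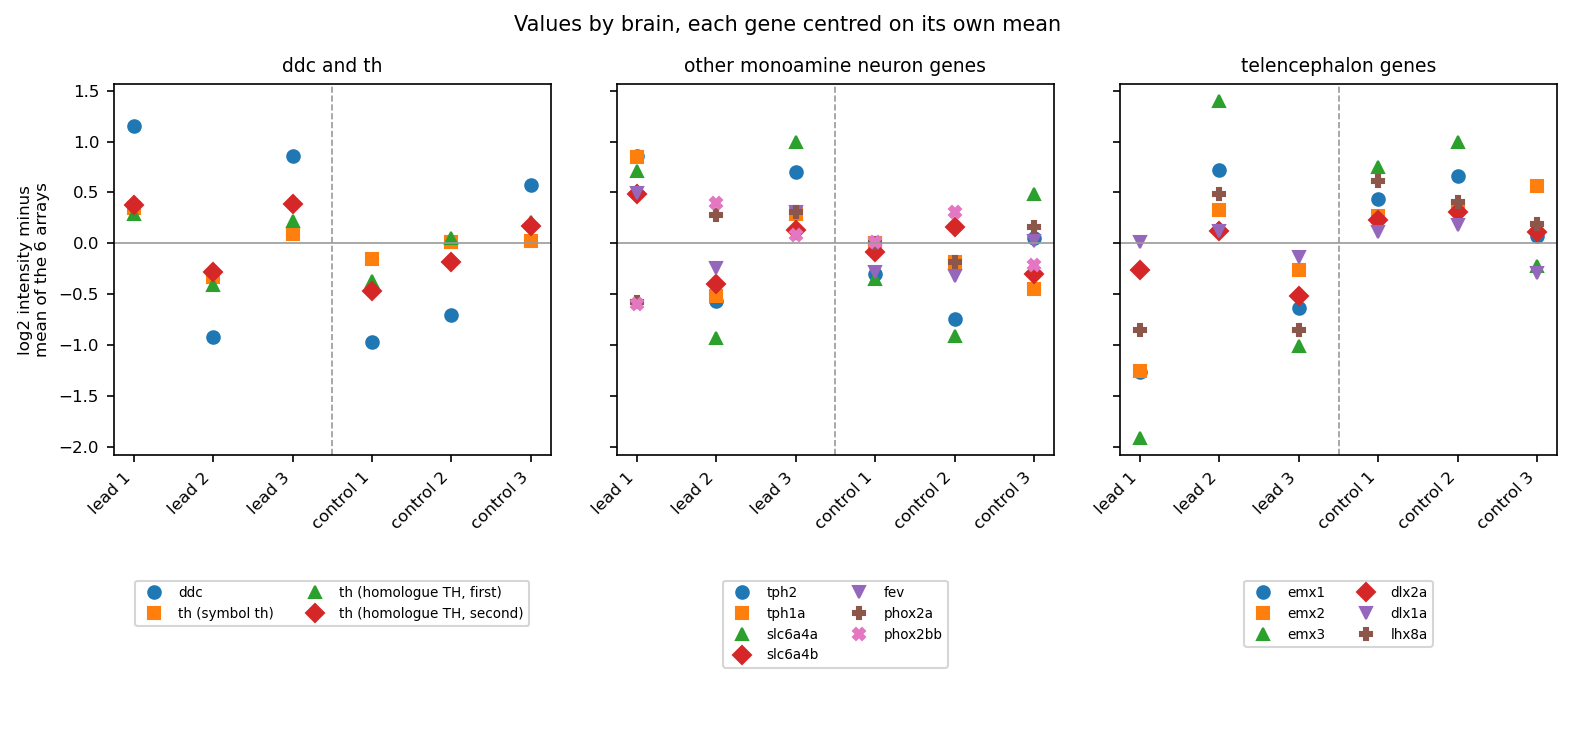
Log2 intensity of each gene in each brain, minus the mean of that gene over the 6 brains, with lead-exposed brains left of the dashed line. Panels show ddc and the 3 clear th targets, the 7 measured genes of other monoamine neurons and the 6 measured telencephalon markers. Values of ddc are above 0 in lead-exposed 1, lead-exposed 3 and control 3, where emx3 is below 0.

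The image name prefix splits each group, and differences were set out on both sides of it. For nr4a2b (RefSeq target) the difference was 0.58 without the prefix, between a single lead-exposed and a single control array, and 0.51 on the 4 arrays with it. In limma on those 4 arrays alone the unadjusted p was 0.0906 for nr4a2b and 0.127 for drd3. The differences without and with the prefix were 0.28 and 0.36 for drd3 and 0.81 and 0.29 for drd4a. For the th targets they were 0.50 and -0.14, 0.66 and -0.22, and 0.84 and 0.06, in the order given above.

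Other genes linked to dopamine were taken as 8 lists with 93 genes, of which 51 were measured under their own symbol, each by its brightest target. They include 11 measured genes of inherited parkinsonism and 7 of other monoamine neurons, so the counts are not of the dopamine system alone. Of the 51 genes, 33 were higher and 18 lower in lead-exposed brains, where 50.2% of all 15372 named genes were higher. The median difference was 0.07, and that of all named genes was 0.00. At unadjusted p under 0.05 there were 2 genes, both higher, against 6.97% of all named genes. In limma and in the equal-variance test 0 passed the adjusted threshold. The dopamine transporter gene slc6a3 and the vesicular transporter gene slc18a2 were not matched by symbol and were not analysed here.

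Of the 13 measured genes in the list of dopamine neuron transcription factors, 11 had a higher mean in lead-exposed brains and 2 a lower one. These are values of whole brains, and expression of these genes in dopamine neurons was not tested. The median difference was 0.27, and among all named genes 50.2% were higher. That median is the value of lmx1a, which was below the random-sequence limit on all arrays, and it was 0.17 without lead-exposed 1 and 0.16 without control 2. The forkhead gene foxa1, whose mouse homologue acts in midbrain dopamine progenitors, read 12.38, 11.53 and 12.15 in lead-exposed brains and 11.29, 11.27 and 11.24 in controls (log2). All lead-exposed brains were above all controls, with a difference of 0.76 (SE 0.22), an unadjusted p of 0.0118 and an adjusted p of 0.607 in limma. The authors' deposited table lists this target with a log2 ratio of 0.76 and a p-value of 0.0408, which is the only target of these lists that it holds. The related gene foxa2 read 10.99, 10.84 and 11.09 in lead-exposed brains and 10.83, 10.45 and 10.66 in controls. Its values in controls 1 and 2 were below the random-sequence limit. The foxa2 difference of 0.33 (SE 0.15) did not pass (adjusted p of 0.714 in limma). The gene sim1a, for a factor of hypothalamic neurons, differed by 0.46 (SE 0.15, unadjusted p of 0.0170, adjusted p of 0.618 in limma) and was below the random-sequence limit on all arrays. Among homologues of mammalian midbrain factors, lmx1a, lmx1bb, pitx3, en1b and en2b differed by 0.27, 0.19, 0.46, 0.18 and 0.29. The 2 factors with a lower mean, lmx1ba and en2a, differed by -0.07 (SE 0.24) and -0.25 (SE 0.13). In en2a all lead-exposed brains were below all controls. Of these genes, pitx3 was above the random-sequence limit on 2 arrays and lmx1ba on 1.

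Genes of synthesis cofactors and enzymes were higher for 4 of 6 members. The gene gch1, for the first enzyme of tetrahydrobiopterin synthesis, which supplies the cofactor of tyrosine hydroxylase, read 12.19, 10.77 and 11.72 in lead-exposed brains and 11.07, 10.98 and 11.28 in controls. Lead-exposed 2 was the lowest brain, as it was for the th target with the symbol th. The highest were lead-exposed 1 and 3 and control 3, as for ddc. The difference was 0.45 (SE 0.34), with 0.13 without lead-exposed 1 and 0.85 without lead-exposed 2. Differences were 0.13 (SE 0.12) for pcbd1, which recycles that cofactor, and 0.23 (SE 0.35) for dbh, which turns dopamine into noradrenaline. The dbh target was above the random-sequence limit on only 1 array. The second tyrosine hydroxylase gene, th2, was below the random-sequence limit on all arrays, and its values of 10.32, 7.84 and 9.73 in lead-exposed brains spanned those of controls.

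Of 4 other measured receptors 1 had a higher mean in lead-exposed brains and 3 a lower one, with differences of -0.23 (SE 0.23) for drd4-rs, -0.18 (SE 0.18) for drd7, which was below the random-sequence limit on all arrays, and -0.06 (SE 0.29) for drd2b. The difference for drd2l was 0.02 (SE 0.20). Whether drd3 differed from these receptors was not tested.

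Of the 7 measured genes of receptor signalling 5 were higher. The phosphodiesterase gene pde10a, whose mammalian homologue is enriched in striatal neurons, differed by 0.41 (SE 0.21), the arrestin gene arrb1 by -0.29 (SE 0.29) and rgs9b by -0.16 (SE 0.17). Without 1 brain at a time pde10a was 0.23 to 0.62, lowest without lead-exposed 1 and highest without lead-exposed 2, and arrb1 was -0.55 to -0.05, farthest from 0 without lead-exposed 3 and nearest without control 2. The breakdown genes comta and comtb, for catechol-O-methyltransferases, differed by 0.13 (SE 0.18) and 0.23 (SE 0.17). A pair of further comtb targets differed by -0.09 and 0.00, the latter below the random-sequence limit on all arrays. Without 1 brain at a time comta was 0.01 to 0.29, lowest without control 1 and highest without control 3, and comtb was 0.09 to 0.37, lowest without lead-exposed 1 and highest without lead-exposed 2. The vesicular transporter gene slc18a1 was the single measured member of the packaging list and differed by -0.20 (SE 0.14), with 0.23 for a second target. Both slc18a1 targets were below the random-sequence limit on all arrays. None of these genes passed in limma.

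Among genes of inherited parkinsonism 4 of 11 were higher and 7 lower, with a median of -0.07. The ubiquitin ligase gene fbxo7 had 11.40, 11.18 and 11.15 in lead-exposed brains and 11.52, 11.63 and 11.48 in controls (log2), with all lead-exposed brains below all controls. It differed by -0.30 (SE 0.13, adjusted p of 0.704 in limma). A second fbxo7 target, above the random-sequence limit on 2 arrays, differed by 0.16. The synaptojanin gene synj1 differed by -0.36 (SE 0.37) and the retromer gene vps35 by -0.11 (SE 0.12). A second vps35 target, below the random-sequence limit on all arrays, differed by 0.55.

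Genes of other monoamine neurons had a higher mean in lead-exposed brains for 6 of 7 members, against 50.2% of all named genes, with a median of 0.38. Of the 7 genes, 3 were above the random-sequence limit on all arrays and 2 on no array. The smallest of the 6 higher differences was 0.01 (SE 0.26) for phox2a, which was below that limit on all arrays. The median is the value of fev, which was below the random-sequence limit on all arrays. It was 0.14 without lead-exposed 3, 0.23 without lead-exposed 1 and 0.60 without lead-exposed 2. Differences were 0.66 (SE 0.40) for tph2, 0.42 (SE 0.34) for tph1a and 0.38 (SE 0.22) for fev, a factor of serotonin neurons. A second tph2 target, above the random-sequence limit on 3 arrays, differed by 0.58. None of these differences passed in limma. Without lead-exposed 1 the differences were 0.40 for tph2, 0.10 for tph1a and 0.23 for fev, and without lead-exposed 2 they were 1.11, 0.78 and 0.60. Lead-exposed 2 had the lowest tph1a value, and the values of tph2 and slc6a4a by brain are those set out above beside ddc.

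**Figure D5:**
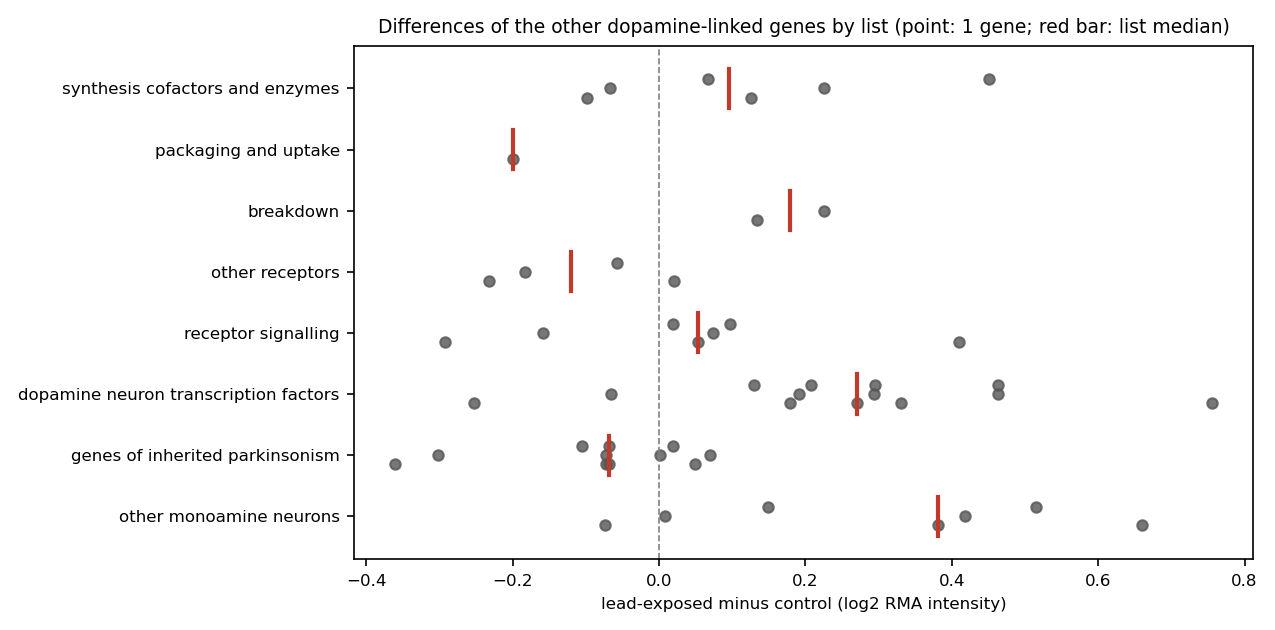
Lead-exposed minus control (log2 RMA intensity) of the measured genes in the 8 lists, with 1 point per gene and a red bar at the list median. The list of dopamine neuron transcription factors has 11 of 13 points above 0, and genes of inherited parkinsonism have 7 of 11 below 0.

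Genes with the most similar profile over the 6 brains were taken for each of the 6 genes from 5258 or 5259 genes above the random-sequence limit on all arrays. For nr4a2b (RefSeq target) they included aasdhppt and ube2ka, with Pearson's r of 0.996 and 0.981. For drd3 they were ankrd29, pold2 and paqr3a, with 0.971, 0.963 and 0.957, and for drd4a they were cybrd1, pfdn1 and mfsd6a, with 0.994, 0.989 and 0.981. For drd2a they were eif4g1a, pax7a and trabd, with 0.980, 0.976 and 0.969. For the brightest th target they were gdap1, dcdc2b and tmem128, with 0.997, 0.996 and 0.995. For ddc they were susd6, mul1 and h3f3b.1, with 0.997, 0.996 and 0.996. These values rest on 6 arrays that share their normalization and describe likeness only. The number of genes with r over 0.9 was 318 for ddc, 214 for th, 117 for drd4a, 56 for nr4a2b, 35 for drd2a and 28 for drd3.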

How the data were processed

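RNA from 6 brains was measured on NimbleGen arrays with 1 colour. The deposited intensity values per target are linear RMA values, as named in the submitters' processing notes. The RMA version is not given in the sources used here. The deposited series value table holds 140663 single-probe intensity values, of which 27114 are random-sequence probes. The log2 ratio and p-value per altered probe in the authors' deposited table are theirs, and their test is not given in the sources used here. The log2 of each RMA intensity was compared, lead-exposed minus control, using limma 3.58.1 (lmFit, then eBayes) in R 4.3.3. The test was 2-sided, without covariates, and no dim target was filtered out. P-values were adjusted over all 38489 targets, or over all 113549 target probes. SE values and 95% intervals are limma's.

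Targets were named through RefSeq accessions, symbols and synonyms of a current gene table (GRCz12tu), and 2663 accessions matched. All positions come from the array files (Zv7). Members and lists were chosen with earlier results of these data known. The rule for naming genes took all targets of the 6 genes, up to 3 genes of each list with the smallest p, and 3 genes of most similar profile with a current zebrafish symbol, of which 1 is not reported here. Further genes (drd2l, th2, slc6a4a, slc6a4b, phox2a, phox2bb, emx1, emx2, emx3, dlx1a, dlx2a, lhx8a, fabp7a, sox2, gfap, glula, s100b, cyp19a1b, aqp4, coro1a, mpeg1.1, spi1b, csf1ra, p2ry12, lmx1a, lmx1ba, lmx1bb, pitx3, en1b, en2a, en2b) were named after their values were seen. The labels give 1 brain per sample but not whether fish shared a tank, so the p-values cover only variation among these animals. Same-numbered arrays of the groups had correlations of -0.148, 0.142 and 0.263 between their deviations from group means, so the numbers were not taken as pairs. The scripts were tested on simulated data. Precision is limited by having 3 arrays per group. No sequence of probes, promoters or proteins was used here.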

Additional observations from a re-analysis of the deposited data

How the results depend on the processing

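In none of the alternatives run over all targets did a target pass the adjusted threshold (on the 4 arrays with the image name prefix alone this was not counted). Of 205 values of the 14 targets 185 kept their direction. That count includes settings that cannot change a difference, so it overstates how far directions were tried. These are the equal-variance test, the blocks for image name prefix and replicate number, and the dimmer 50% left out. The nr4a2b RefSeq target stayed between 0.42 and 0.67 without 1 brain at a time, drd3 between 0.25 and 0.40, drd4a between 0.30 and 0.62 and ddc between 0.33 and 1.37. Directions turned on the 4 arrays with the image name prefix, an alternative chosen after seeing the data, for the th targets OTTDART00000002329 (-0.14) and ZV700S00003483 (-0.22) and for the nr4a2b targets nurr1 (0.36), zgc:92696 (-0.0459) and BI879680 (0.0264). With the series value table BI879680 was 0.0653 and drd2a 0.017, and with array weights BI879680 was 0.0455 and drd2b 0.0175. Without 1 brain at a time the ranges were -0.0816 to 0.26 for OTTDART00000002329, -0.0914 to 0.29 for ZV700S00003483, -0.31 to 0.30 for nurr1, -0.0063 to 0.34 for zgc:92696, -0.17 to 0.0786 for BI879680, -0.30 to 0.0374 for drd2a, -0.0656 to 0.54 for dbh, -0.36 to 0.12 for drd2b, -0.26 to 0.0067 for rgs9b and -0.66 to 0.0675 for synj1. Targets with both an unadjusted p under 0.05 and a 1.5-fold difference numbered 998, and 207 with the dimmer 50% left out, 2340 with array weights, 588 by the equal-variance test and 852 to 2541 without 1 brain, the highest without lead-exposed 2. Without control 3 they were 1566. With the replicate number as a replicate block they were 1204, the differences were the same by construction, and none of the 14 targets passed the adjusted threshold. At unadjusted p under 0.05 the block moved drd3 out (0.0529) and drd4a in (0.0451). Array weights, lowest for lead-exposed 2 (0.486), brought drd4a (0.0137), ddc (0.0240) and the th target ZV700S00003484 (0.0284) under 0.05 in limma. Without lead-exposed 2 these 3 were also under 0.05 (0.0319, 0.0267 and 0.0445), as drd4a was without control 3 (0.0355). None of them passed the adjusted threshold. Member probes at unadjusted p under 0.05 were 4, and 1 to 10 without 1 brain, with 1 without lead-exposed 1 or 3, 2 without control 2 and 10 without lead-exposed 2. The list median was 0.0165 for packaging with the mean of all targets of a gene and -0.0139 for inherited parkinsonism with the series value table. The cause of these changes was not tested.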
